A study of Mus musculus with 239 samples.

Results

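The 10 genes of the contractile machinery of smooth muscle described here were followed in single mouse mammary cells, chosen by name from the 18850 genes of the deposited expression table. They are the smooth muscle actins Acta2 and Actg2, the myosin heavy chain Myh11, its regulatory light chain Myl9, the kinase Mylk, the tropomyosins Tpm1 and Tpm2, the actin-binding proteins Cnn1 and Tagln, and the oxytocin receptor Oxtr. They were named by function, with earlier results of these data known, and all 10 were among the 10349 genes tested, which had at least 1 FPKM (fragments per kilobase of transcript per M mapped fragments, M for mega) in 10 cells or more.

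The cells came from FVB mice, 3 to 4 months old, that were virgin or pregnant (day 12 per the sample labels, day 12.5 per the protocol text). Blood-lineage and endothelial cells were depleted, and the remaining live cells were sorted into a basal gate (CD24 intermediate, CD29 high) or a luminal gate (CD24 high, CD29 low) and captured singly on Fluidigm C1 chips, a microfluidic device with 1 chamber per cell. Of 136 basal-gate cells, 34 were from virgin mice and all others from pregnant mice, and of 103 luminal-gate cells, 54 were virgin and 49 pregnant. No label names the mouse, chip or day of a cell, so each group counted as 1 sample, no difference was tested, and every SD, range and interval describes the spread or the counting of cells only.

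Myoepithelial cells form the contractile outer layer of mammary ducts and alveoli. Oxytocin released at suckling binds OXTR, calcium enters the cytoplasm, calmodulin switches on myosin light chain kinase (Mylk), and the phosphorylated light chain (Myl9) lets smooth muscle myosin (Myh11) pull on actin filaments that tropomyosin, calponin (Cnn1) and transgelin (Tagln) coat. Many smooth muscle genes are driven by serum response factor, SRF, which binds a short element called the CArG box together with cofactors of the myocardin family.

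All 10 genes are protein coding in the GENCODE annotation of GRCm38, the build the authors mapped to. Acta2 lies at chr19:34241090-34255590 and Actg2 at chr6:83512905-83536265, both on the minus strand. Myh11 lies at chr16:14194535-14291372 (minus), Myl9 at chr2:156775420-156781658 (plus) and Mylk at chr16:34745210-35002420 (plus). Tpm1 lies at chr9:67022590-67049406 and Tpm2 at chr4:43514711-43523765, both minus. Cnn1 lies at chr9:22099216-22109630 (plus), Tagln at chr9:45929619-45936058 (minus) and Oxtr at chr6:112473683-112489943 (minus). Tpm1 and Mylk each encode several isoforms, muscle and non-muscle, and the deposited table has 1 value per gene, so isoforms could not be told apart.

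Promoter sequence is shown for the members in which the SRF element was found, because the members varied together over cells (below). RefSeq promoter windows of GRCm38.p6 were matched for 7 members: Acta2, Myl9, Cnn1, Tpm1, Tpm2, Mylk and Oxtr. An exact CArG box, searched on both strands of the 250 bases before the gene start, was found in 1 of the 7 (Myl9), against 1.62% of the 27025 genes with a window. A CArG box or a near match with 1 G or C in its A/T core was in 2 of the 7 (Myl9 and Acta2), against 9.78% of genes. In the sequences below, written 5′ to 3′ on the gene's strand, capitals mark these elements. The Myl9 stretch is chr2:156775283-156775394 (plus), and the Acta2 sites are chr19:34255438-34255467 and chr19:34255388-34255417 (minus).
Myl9 promoter: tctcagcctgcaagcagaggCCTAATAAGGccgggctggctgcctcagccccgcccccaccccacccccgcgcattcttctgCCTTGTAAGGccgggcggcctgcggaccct
Acta2 distal site: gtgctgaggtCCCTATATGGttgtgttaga
Acta2 proximal site: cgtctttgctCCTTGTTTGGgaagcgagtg
In Myl9 the exact element lay 161 to 152 bases and the near match 99 to 90 bases before the RefSeq gene start. Both Acta2 sites were near matches, 84 to 75 and 34 to 25 bases before the RefSeq start, and lie inside the longer gene span of GENCODE. A match of letters describes the window and is no evidence of binding.

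Depth, estimated from the steps between low FPKM values, ranged from 1.15 to 39.9 M fragments per cell, with group medians of 6.19 M (virgin basal), 8.55 M (virgin luminal), 9.12 M (pregnant basal) and 8.86 M (pregnant luminal). Cells of the virgin basal group had a median of 1825 genes at or above 1 FPKM, below the 3773, 2734.5 and 3653 of the other groups in the same order. A level of 1 FPKM stood for 6.93 (Tagln) to 68.2 (Mylk) fragments in the median cell and for 0.91 to 8.97 in the shallowest. Among basal-gate cells, 30 of 34 virgin cells and all but 1 of the pregnant cells had Krt5, Krt14 or Krt17, the basal keratins. Markers of another cell type were also present: 8 virgin and 7 pregnant basal-gate cells had at least 1 of the endothelial genes Pecam1, Cdh5, Kdr, Emcn and Tie1 at 1 FPKM or above. The main results on basal cells (levels, differences, co-detection, correlations, family shares and list counts) were therefore also computed without these 15 cells, an alternative chosen after seeing the data.

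**Figure D1:**
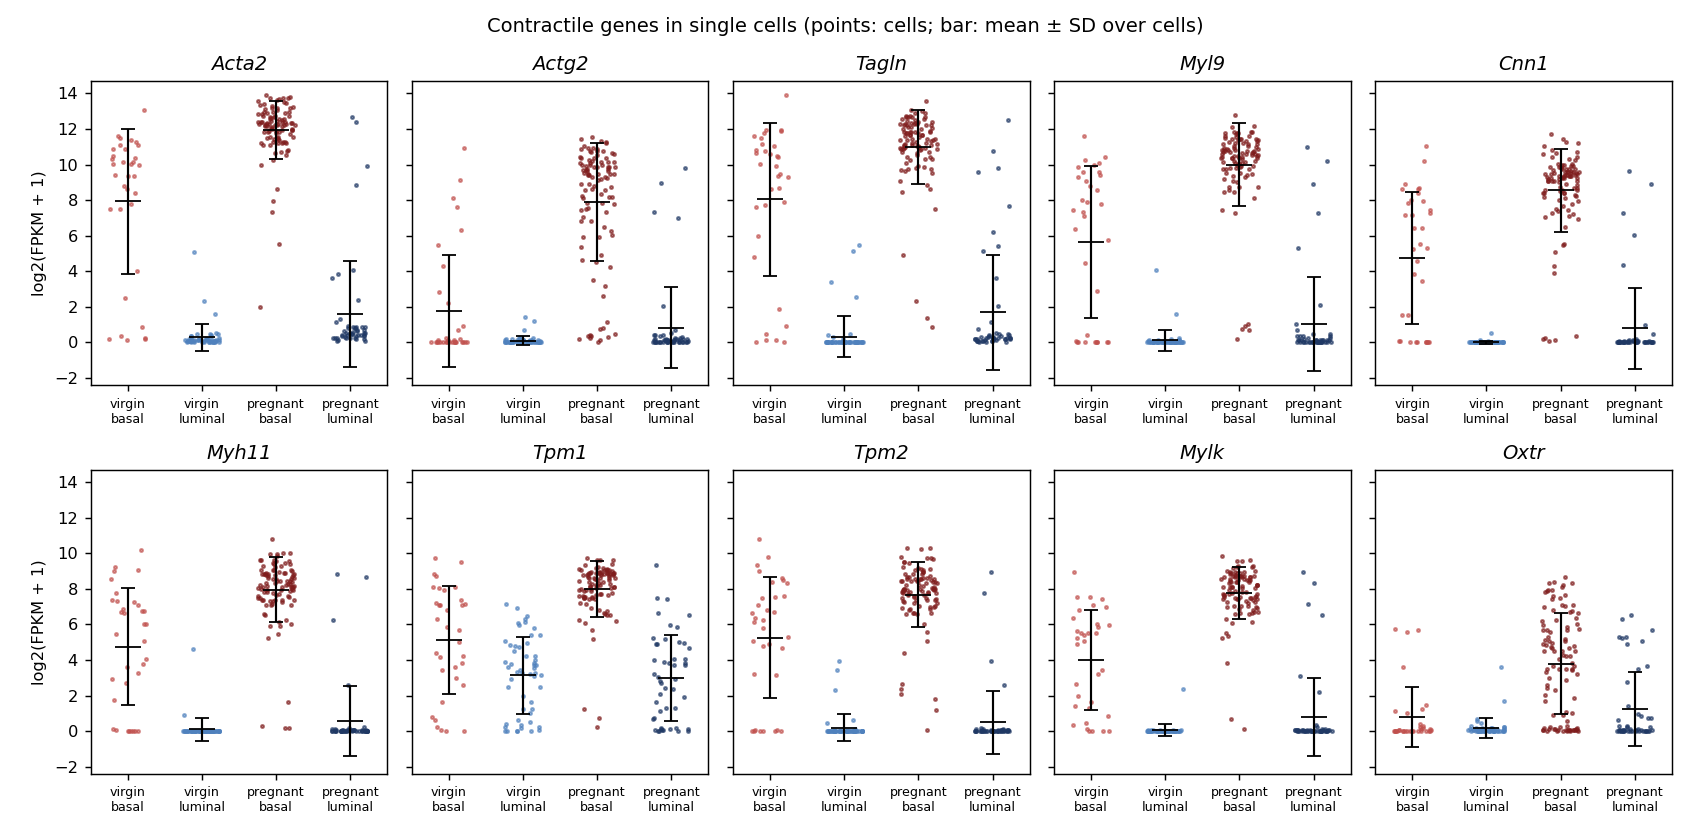
Level of each of the 10 genes as log2(FPKM + 1) in every cell of the 4 groups; points are cells and bars the mean ± SD over cells. Pregnant basal cells sat highest for all 10 genes, Tpm1 was the only gene spread widely over luminal cells, and 4 pregnant luminal cells stood at basal levels for most genes.

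The actins come first, as the filament on which the other proteins act. Acta2, alpha smooth muscle actin and the usual myoepithelial marker, ranged from 0.105 to 8757 FPKM in virgin basal cells with a median of 847, and from 2.94 to 15528 with a median of 4846 in pregnant basal cells. It reached 1 FPKM in 28 of 34 virgin basal cells and in every pregnant basal cell. In luminal cells it was scarce: the median was 0.0878 FPKM in virgin and 0.453 in pregnant cells, and 3 of 54 and 10 of 49 cells reached 1 FPKM.

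Actg2, gamma smooth muscle actin, which is best known from the gut and other visceral muscle, had the most unequal pattern in the basal gate. Its virgin basal median was 0.0096 FPKM and its highest value 1972, and 17 of the 34 cells were listed at 0. In pregnant basal cells the median was 625 FPKM and the highest value 3050. It reached 1 FPKM in 9 of 34 virgin basal cells (26.5%, exact Clopper-Pearson 95% interval 12.9% to 44.4%) and in 91 pregnant basal cells (89.2%, 81.5% to 94.5%). The 9 virgin cells with Actg2 were deeper, with a median of 18.3 M fragments (3.22 to 29.9), than the 25 without it (median 5.43 M, 2.13 to 39.9), and the part of depth in this split was not tested. Without cells that had an endothelial gene, 8 of 26 virgin (30.8%) and 88 of 95 pregnant cells had Actg2. All 9 virgin cells with Actg2 also had Acta2, while 19 virgin cells had Acta2 without Actg2. In luminal cells it reached 1 FPKM in 2 of 54 virgin and 5 of 49 pregnant cells.

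The myosin motor and its switch were next. Myh11, the smooth muscle myosin heavy chain, had a median of 53.6 FPKM (0 to 1185) in virgin basal and 302 (0.113 to 1820) in pregnant basal cells. Myl9, the light chain whose phosphorylation starts contraction, had a median of 168 FPKM (0 to 3133) in virgin basal and 1479 (0.139 to 7089) in pregnant basal cells. Mylk, the kinase, had a median of 34.8 FPKM (0 to 494) in virgin basal and 268 (0.103 to 905) in pregnant basal cells. The groups overlapped for all 3, and each was at 1 FPKM in nearly all pregnant basal cells (99, 98 and 100 cells) and in 26, 23 and 26 of 34 virgin ones. In virgin luminal cells they reached 1 FPKM in 1 (Myh11), 2 (Myl9) and 1 (Mylk) of 54 cells, and in pregnant luminal cells in 4, 7 and 6 of 49.

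The thin filament proteins divided into a broadly expressed and a basal pair. Tpm1, a tropomyosin, was the one member common in luminal cells, at 1 FPKM in 41 of 54 virgin (median 9.42, highest 142 FPKM) and 35 of 49 pregnant cells (median 6.57, highest 650 FPKM). Its basal medians were 54.3 FPKM (0 to 863) in virgin and 338 (0.192 to 844) in pregnant cells. Tpm2, the other smooth muscle tropomyosin, was at 1 FPKM in 3 of 54 and 4 of 49 luminal cells. In basal cells its median was 73.4 FPKM (0 to 1784) in virgin and 252 (0.0513 to 1269) in pregnant cells.

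Cnn1, calponin, which damps the myosin motor, was at 1 FPKM in 0 of 54 virgin luminal cells (a count of 0 allows at most 5.56% of cells at that level) and in 5 of 49 pregnant luminal cells. Its median was 41.8 FPKM (0 to 2138) in virgin basal and 614 (0.0527 to 3318) in pregnant basal cells. Tagln, transgelin, an early marker of smooth muscle differentiation, had a median of 840 FPKM (0 to 15344) in virgin basal and 2684 (0.827 to 11998) in pregnant basal cells. The highest Tagln value of the basal gate was thus in a virgin cell, while the pregnant cells were more uniform.

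Oxtr, the receptor that links the hormone to this machinery, had far lower transcript levels than its effectors. Its median was 0.024 FPKM (0 to 52.9) in virgin basal and 17.7 (0 to 409) in pregnant basal cells. It reached 1 FPKM in 7 of 34 virgin basal cells (20.6%, interval 8.70% to 37.9%) and 73 pregnant basal cells (71.6%, 61.8% to 80.1%). In the luminal gate it reached 1 FPKM in 2 of 54 virgin and 12 of 49 pregnant cells. Virgin basal cells with and without Oxtr had similar median depths, 6.52 and 5.90 M fragments, and medians of 1763 and 1887 genes.

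FPKM is per length, so levels of different genes may be ordered. In pregnant basal cells the medians ran Acta2, Tagln, Myl9, Actg2, Cnn1, Tpm1, Myh11, Mylk, Tpm2 and Oxtr. The first steps held within cells: Acta2 exceeded Tagln in 90 cells, Tagln exceeded Myl9 in 88 and Myl9 exceeded Actg2 in 85. Actg2 and Cnn1 (Actg2 higher in 48 cells), Tpm1 and Myh11 (51), Myh11 and Mylk (60) and Mylk and Tpm2 (57) were not ordered beyond their spread. In virgin basal cells Acta2 and Tagln were level (Acta2 higher in 18 of 34 cells), the 5 genes from Tpm2 to Mylk were close, and Oxtr and Actg2 came last.

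The first comparison asked how far these genes set the sorted gates apart, taking the mean over cells of log2(FPKM + 1) and calling a difference of at least 1. In virgin mice 9 of the 10 members were higher in basal than in luminal cells by this measure and 0 lower, against 2.41% of all tested genes higher and 26.9% lower. The median difference of the members was 4.69, that of all tested genes -0.46. Tagln differed by 7.72 (mean 8.05 ± 4.29 SD in 34 basal, 0.33 ± 1.14 in 54 luminal cells) and Acta2 by 7.63 (7.93 ± 4.10 against 0.30 ± 0.76). Tpm1 (1.99), Actg2 (1.64) and Oxtr (0.61, not called) differed least. Tpm1 had a luminal mean of 3.14, and the other pair had low basal means of 1.75 and 0.79.

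In pregnancy 10 of 10 members were higher in basal than in luminal cells and 0 lower, against 5.27% and 16.3% of tested genes. Acta2 (10.36), Tagln (9.30) and Myl9 (8.95) were the 3 largest differences in favour of basal cells among the 10349 genes tested, and the members' median was 7.27 against -0.24 for all. Oxtr had the smallest difference, 2.54, from a basal mean of 3.80 ± 2.84 (SD over cells) and a luminal mean of 1.26 ± 2.09 (49 cells). The basal keratins Krt17 (6.85) and Krt5 (5.04) were higher in the same direction, and the milk protein Csn2 had a difference of -11.90, with 7 of 7 milk protein genes lower.

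**Figure D2:**
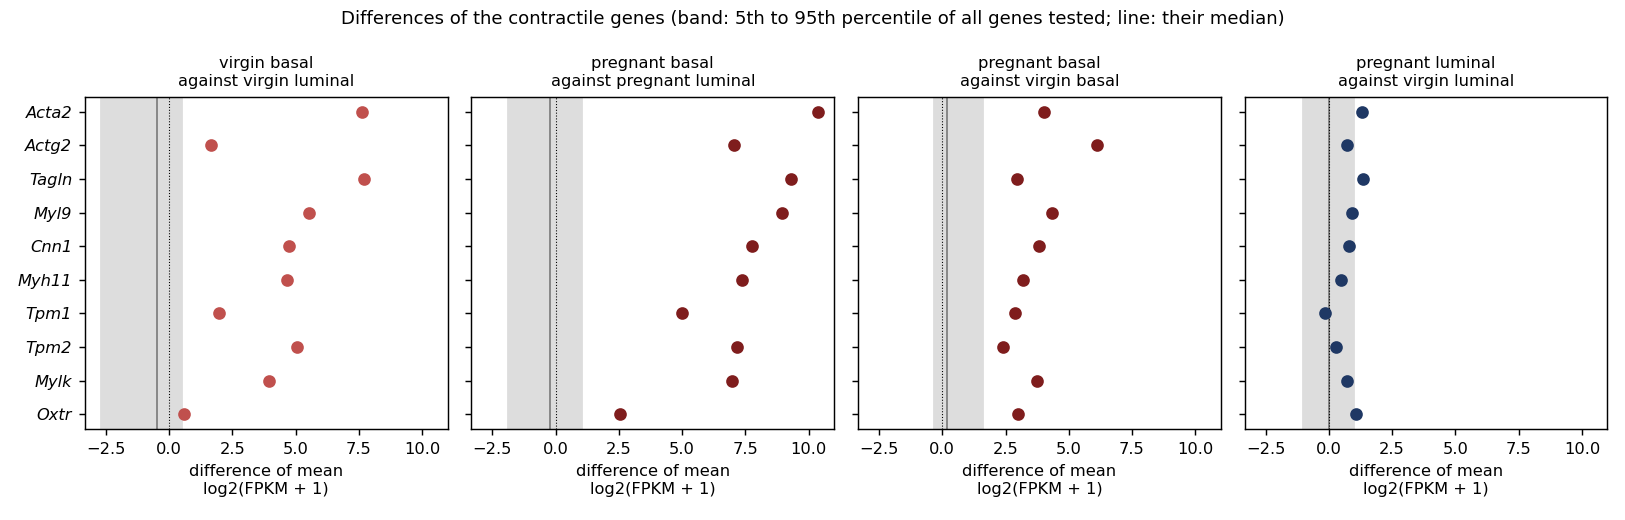
Difference of mean log2(FPKM + 1) for each of the 10 genes (points) in the 4 comparisons, first group minus second; the grey band spans the 5th to 95th percentile of all 10349 genes tested and the line is their median. All 10 points lie right of the band in both pregnant basal panels, and most lie near or inside it for pregnant against virgin luminal cells.

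The second question was how the contractile genes of the basal gate differed between pregnancy and the virgin state. All 10 were higher in pregnant basal cells by at least 1, and 0 were lower, beside 12% of tested genes higher and 0.454% lower. Actg2 had the largest difference in favour of pregnant cells of any tested gene, 6.13 (mean 7.88 ± 3.33 SD over pregnant, 1.75 ± 3.14 over 34 virgin cells). It was followed among the members by Myl9 (4.34, 9th of all), Acta2 (4.03, 14th), Cnn1 (3.81) and Mylk (3.75), and then by Myh11 (3.19), Oxtr (3.00), Tagln (2.95), Tpm1 (2.88) and Tpm2 (2.42). As ratios of mean FPKM the differences were smaller, from 1.60 for Tpm2 and 1.94 for Tagln to 8.01 for Actg2 and 11.8 for Oxtr.

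Part of each difference was a larger share of cells with the gene and part a higher FPKM where it was found. Among cells at 1 FPKM or more, median Actg2 was 77.8 FPKM in 9 virgin and 704 in 91 pregnant cells, a ratio of 9.05. Mylk had the next largest ratio of such medians, 6.09, and Acta2 had 4.41. Tagln had the smallest, 1.91 (1405 FPKM in 28 virgin and 2688 in all but 1 of the pregnant cells). All 10 ratios were above 1. They compare FPKM without rescaling, and no such ratio was computed over all genes. The median factor that brought a cell to a common median (below) was 2.24 in virgin and 0.985 in pregnant basal cells. The part of this general shift in the ratios, among them 1.91 for Tagln and 2.33 for Tpm2, was not tested.

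Technical and cellular differences moved with this comparison. Virgin basal cells had fewer genes and less depth, and their share of cells with an endothelial gene was larger (8 of 34, against 7 of all pregnant basal cells). Without the cells with an endothelial gene 10 of 10 members were still higher by at least 1 (26 virgin and 95 pregnant cells), with Actg2 at 6.01, Acta2 at 2.69, Tagln at 1.62 and Tpm2 at 1.47. Virgin medians were then higher, at 142 FPKM for Cnn1, 136 for Tpm1, 105 for Myh11, 319 for Myl9, 1503 for Tagln and 1145 for Acta2, and stayed below 1 FPKM for Actg2 and Oxtr. Among cells with at least 2000 genes (12 virgin, 93 pregnant) it was again 10 of 10, with Actg2 at 5.44, Tpm1 at 1.21 and Tagln at 1.05. In the middle range of gene number (9 virgin, 59 pregnant cells) it was 8 of 10: Tagln differed by 0.43 and Tpm1 by 0.75, and Actg2 by 5.94. The share of all tested genes that were higher in these subsets of cells is not given here. These counts can therefore not be set against the general shift. When FPKM was rescaled in each cell to a common median of broadly found genes, 10 of 10 members stayed higher, from 1.53 (Tpm2) to 5.64 (Actg2), while the share of higher among all called genes went from 96.3% to 57.4% and the median of all genes from 0.20 to 0.04. The rescaling factors ran from 0.527 to 246 over the cells of all groups, so values of some cells were changed greatly. The part of depth in the remaining differences was not tested.

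Between the luminal groups, 3 of 10 members were higher in pregnancy by at least 1 and 0 lower, beside 4.84% and 5.04% of tested genes. They were Tagln (1.36), Acta2 (1.31) and Oxtr (1.07), with all 10 from -0.15 (Tpm1) to 1.36. These values rested largely on 4 cells. Without the 4 pregnant luminal cells that had Krt5, a basal keratin, Tagln differed by 0.56 and Acta2 by 0.48, and Oxtr alone, at 1.03, stayed above 1.

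**Figure D3:**
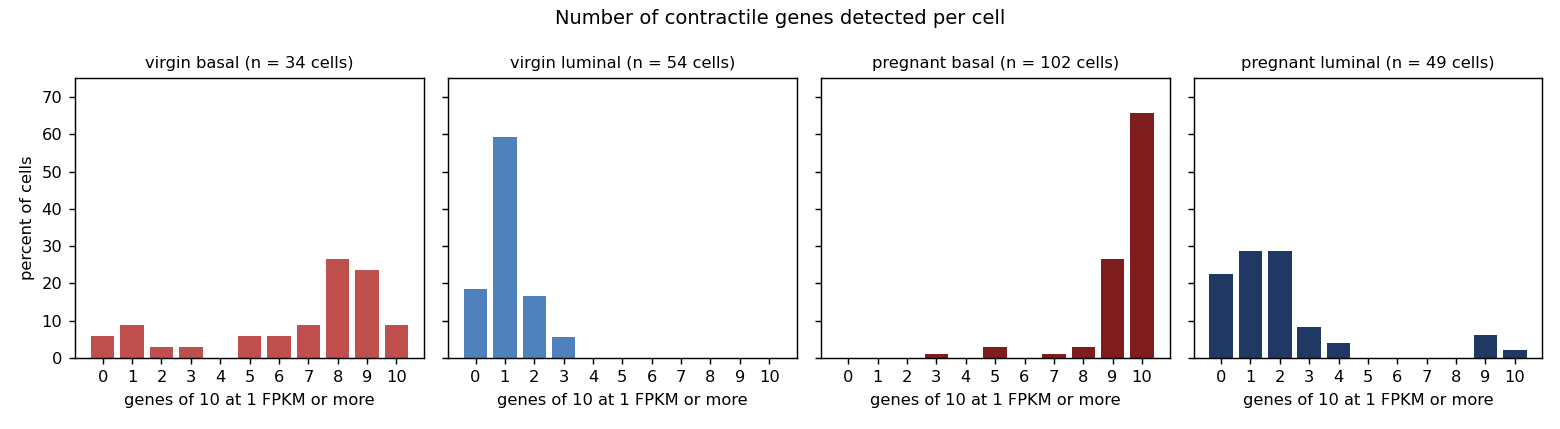
Percent of the cells of each group in which 0 to 10 of the 10 genes reached 1 FPKM. Pregnant basal cells pile up at 9 and 10 genes, virgin basal cells spread from 0 to 10 with a peak at 8 and 9, and luminal cells hold 0 to 4 apart from 4 pregnant cells with 9 or 10.

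Co-detection showed how the programme was distributed over single cells. The median number of members at 1 FPKM was 8 per virgin basal and 10 per pregnant basal cell. At least 8 were found together in 20 of 34 virgin basal cells (58.8%, interval 40.7% to 75.4%) and in 97 pregnant basal cells (95.1%, 88.9% to 98.4%). All 10 were found in 3 virgin and 67 pregnant basal cells. The members most often missing were Oxtr and Actg2. Of the 29 pregnant basal cells without Oxtr, 7 also lacked Actg2.

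Detection was nested for some pairs in virgin basal cells. The 23 cells with Myl9 all had Acta2 and Tagln, whereas 5 cells with Acta2 lacked Myl9. Likewise the 26 cells with Myh11 all had Acta2. Other pairs were not nested: 3 cells had Tpm1 without Acta2 and 4 had it without Tagln, 5 had Mylk without Cnn1 and 3 had Cnn1 without Mylk, and 1 cell each had Tagln or Mylk without Acta2. Of the 34 virgin basal cells, 6 had neither Acta2 nor Myh11.

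Endothelial genes were more frequent in basal-gate cells with few members. In virgin mice 6 cells had 0 to 2 members, and 5 of these had an endothelial gene, as did 3 of the 8 cells with 3 to 7 members and 0 of the 20 cells with 8 or more. In pregnancy no cell had fewer than 3 members, 5 had 3 to 7 and 4 of them had an endothelial gene, against 3 of the 97 with 8 or more. The basal-gate cell with the fewest members in pregnancy had 3 and carried 4 of the 5 endothelial genes, with Krt14 at 0.304 FPKM. The summed level of the 10 endothelial markers had a median of 0 in both basal groups and ranged up to 6733 FPKM in virgin and 1985 FPKM in pregnant basal cells. Without such cells, 76.9% of 26 virgin and 98.9% of 95 pregnant basal cells had at least 8 members.

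Pericytes and vascular smooth muscle cells share most of the contractile genes, so their own markers were read in the same cells. Of the 10 pericyte markers, 3 reached 1 FPKM in any virgin basal and 3 in any pregnant basal cell, and their summed level ranged from 0 to 220 FPKM (median 0.167) and from 0 to 695 FPKM (median 0.272). No basal-gate cell had 3 or more of the 10 pericyte markers. With 3 markers found in each group, a cell needed all of them to reach 3, so this count cannot tell whether pericytes were present. Des, Kcnj8 and Higd1b were listed at 0 in all 136 basal-gate cells. Des and Kcnj8 were at 0 in every luminal-gate cell too, and such a 0 may be a gene left without an estimate. Rgs5 was at 1 FPKM in 32 pregnant and 2 of 34 virgin basal cells. Of those 32 pregnant cells 30 had at least 8 members, a share near the 95.1% of all pregnant basal cells. In virgin mice 5 basal-gate cells had Rgs5, Kcnj8, Abcc9 or Higd1b. None of them was among the 20 virgin cells with 8 or more members. The rank correlation of Rgs5 with the members' mean rank was -0.04 over pregnant and -0.26 over virgin basal cells.

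In the luminal gate, 5 or more of the contractile genes appeared together in 4 cells, all from pregnant mice. No virgin luminal cell had more than 3 members: 32 cells had 1, 9 had 2 and 3 had 3. Among 49 pregnant luminal cells, 11 had 0 members, 14 had 1, 14 had 2, 4 had 3, 2 had 4, and 4 had 9 or 10 (8.16%, interval 2.27% to 19.6%). These 4 were also the only pregnant luminal cells with Krt5 at 1 FPKM or more.

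Pregnant luminal cell 2 had all 10 members, with Acta2 at 5342, Tagln at 5892 and Oxtr at 76.7 FPKM, together with Krt14 at 668, Krt18 at 98.3 and the milk protein Csn2 at 3318 FPKM. Cell 5 had Acta2 at 6465, Actg2 at 901 and Tpm1 at 650 FPKM, with Krt18 at 78.2 and Csn2 at 1855. Acta2 in both was above the pregnant basal median. Cell 24 had Acta2 at 988 and Myl9 at 474 FPKM, and Csn2 at 24471, close to the median of other pregnant luminal cells (27607). Cell 31 had Acta2 at 469, Myh11 at 5.15 and Tpm2 at 5.04 FPKM, with Krt18 at 475 and Csn2 at 864. All 4 thus held basal and luminal transcripts at once, with Krt18 below the other luminal cells' median of 1405 FPKM and 2436 to 3991 genes. Per the labels, the authors looked at the capture chambers for doublets. No computational caller was applied, and the part of paired cells or free RNA in these profiles was not tested.

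Oxtr in the pregnant luminal gate was found mostly in cells with none of the other members apart from Tpm1. Of the 12 cells with Oxtr (1.68 to 91.3 FPKM, median 34.7), 8 had none of the 8 other members once Tpm1 is left aside, and 1 had 5 or more. All 73 pregnant basal and all 7 virgin basal cells with Oxtr had at least 5 of those 8. With or without Oxtr, 99 pregnant basal, 26 of 34 virgin basal and 4 of 49 pregnant luminal cells did. These counts therefore do not show a link of Oxtr to the set in either gate. Median Acta2 in the 12 luminal cells was 0.434 FPKM, beside 0.552 in the 37 without Oxtr. All 12 had Krt18 (median 1538 FPKM) and Csn2 (median 16461 FPKM), and 10 had Krt14, as did 32 of the 37 others.

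Whether the genes varied together over basal cells was described with Spearman's rank correlation (rho) of FPKM. Over 34 virgin basal cells the 45 pairs had a median rho of 0.53 (0.22 to 0.80), and over all pregnant basal cells 0.42 (0.04 to 0.77). All 45 pairs were above 0 in both, where the median over all pairs of genes found in 25% or more of the cells was 0.07 and 0.04. The points are cells of 1 group that share library preparation and differ in depth, and no p is given. Given the number of genes per cell, the medians were 0.51 and 0.43.

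The virgin value moved with the cells that had endothelial genes. Without them the median rho was 0.30 over 26 virgin cells (43 of 45 pairs above 0) and was 0.37 over 95 pregnant cells (44 of 45), beside 0.06 and 0.04 over all gene pairs.

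**Figure D4:**
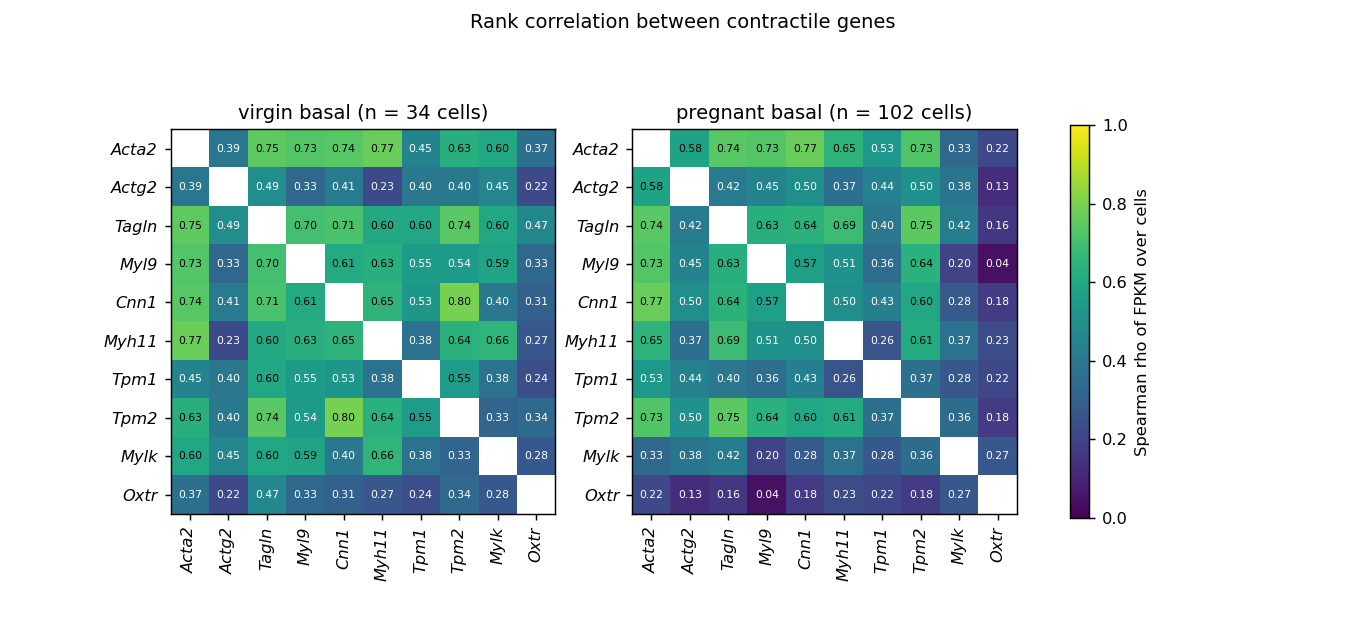
Spearman rho of FPKM over cells for each pair of the 10 genes, in virgin basal (left) and pregnant basal cells (right); colour runs from 0 to 1. Acta2, Tagln, Cnn1, Myl9, Myh11 and Tpm2 form the brightest block in both panels, and the Oxtr row is the darkest.

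The strongest pairs were read over all basal-gate cells, those with an endothelial gene included. In pregnant basal cells they were Acta2 with Cnn1 (0.77), Tagln with Tpm2 (0.75) and Acta2 with Tagln (0.74). In virgin basal cells they were Cnn1 with Tpm2 (0.80) and Acta2 with Myh11 (0.77). Mylk was less tied to the rest in pregnant basal cells, with a mean rho with the other members of 0.32 against 0.59 for Acta2. Oxtr had the lowest mean (0.18 over pregnant, 0.31 over virgin basal cells) of the members. Its pairs over pregnant basal cells ran from 0.04 with Myl9 to 0.27 with Mylk, all above 0.

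The rank correlation of the members' mean rank with gene number was 0.04 (pregnant basal) and 0.36 (virgin basal), and with depth -0.17 and 0.20. Single genes departed from this: over virgin basal cells Actg2 had a rho of 0.53 with depth and Mylk 0.57 with gene number. Krt14 varied with the members, with a rho against the members' mean rank of 0.43 (pregnant basal) and 0.69 (virgin basal). The simple keratin Krt18 had 0.50 in virgin and -0.07 in pregnant basal cells, and the difference between these values was not tested. Without the cells with an endothelial gene, Krt14 had 0.36 (pregnant) and 0.37 (virgin), and Krt18 -0.12 and 0.14.

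The genes most like the set, ranked by rho with the members' mean rank over pregnant basal cells among 3797 other genes, were led by Myl6 (0.75, and 0.71 in virgin basal cells, or 0.74 and 0.56 without cells with an endothelial gene), the essential light chain that binds beside MYL9 on the same myosin. Sparc, a matricellular protein (0.59), Ckb, brain creatine kinase (0.59), and 1600014C10Rik (0.57) were also among the first 10. Over virgin basal cells the values were 0.13 for Sparc, 0.46 for Ckb and 0.53 for 1600014C10Rik. Without cells with an endothelial gene the virgin values were 0.04, 0.25 and 0.25. These 3 genes had low luminal levels: Sparc reached 1 FPKM in every pregnant basal but in 6 of 49 pregnant luminal cells, and Ckb in 88 and 5. The other 6 of the 10 were Rpl37, Rps18, Eef1a1, Rpl37a, Rps3 and Rpl37rt, genes of the translation machinery found in all or nearly all cells of every group. Their virgin basal values ran from 0.15 (Rpl37rt) to 0.54 (Rps18). The members' mean rank had a rho of 0.59 with the mean rank of 74 ribosomal protein genes over pregnant and 0.56 over virgin basal cells. Given that rank, the members' median pairwise rho was 0.37 and 0.43.

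Each contractile gene has non-muscle relatives, and the share of a family's summed FPKM taken by the smooth muscle form within a cell does not depend on how the total of the cell was scaled. Acta2 and Actg2 together made up a median of 20.7% of the FPKM of the 4 actins (with Actb and Actg1) in virgin basal cells and 43.5% in pregnant basal cells. The quartiles, 5.64% to 30.7% and 34.3% to 51.8%, did not overlap, though the ranges did. Without the cells with an endothelial gene the quartiles, 15.7% to 35.4% and 35.1% to 51.9%, overlapped slightly. In luminal cells the share was 0.0021% (virgin) and 0.0080% (pregnant), with 4 pregnant cells standing apart. Within the smooth muscle actins, Actg2 had a median share of 0.0078% in 27 virgin and 9.77% in pregnant basal cells (all but 1).

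**Figure D5:**
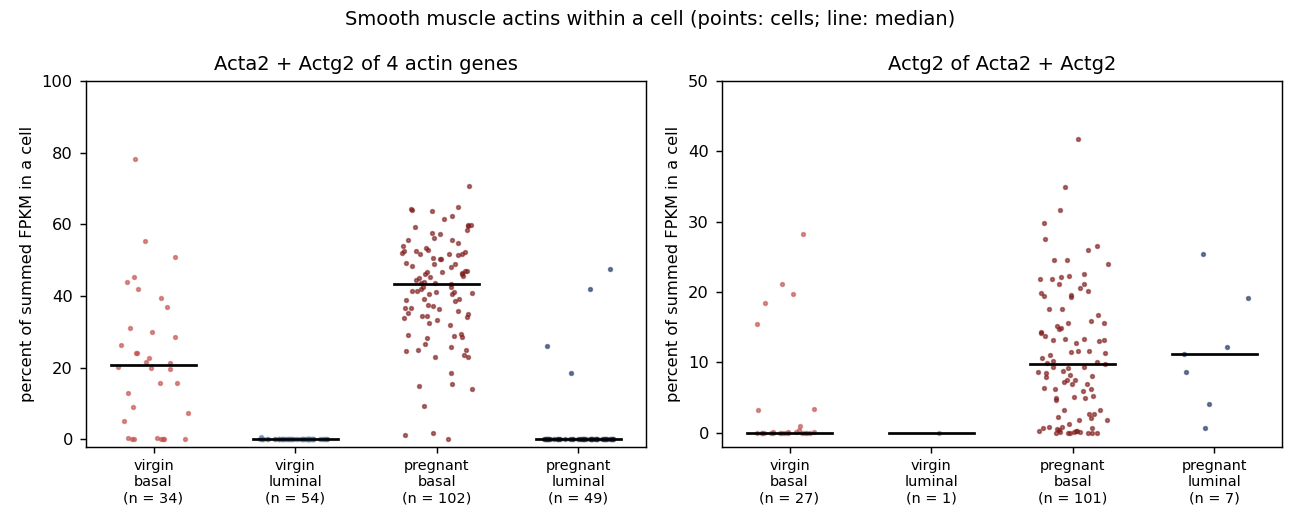
Left, percent of the summed FPKM of Acta2, Actg2, Actb and Actg1 that is Acta2 and Actg2 in each cell; right, percent of Acta2 and Actg2 that is Actg2 in cells with at least 10 FPKM of the pair. Lines are medians: 20.7% in virgin and 43.5% in pregnant basal cells on the left, and 0.0078% and 9.77% on the right.

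The medians of the other families pointed the same way, but the quartiles overlapped for all except the regulatory light chains. Without the cells with an endothelial gene they overlapped for these too. For Cnn1 the quartiles over all cells were 2.89% to 84% in virgin and 45% to 76.4% in pregnant basal cells. Myh11 made up a median of 32.3% (virgin basal) and 74.5% (pregnant basal) of 3 myosin heavy chains, with Myh9 and Myh10. Myl9 made up 65.3% and 86.4% of the regulatory light chains (with Myl12a and Myl12b), and Cnn1 35.5% and 61.2% of the calponins (with Cnn2 and Cnn3). Tagln made up 76.6% and 96.6% of the transgelins (with Tagln2), and Tpm1 with Tpm2 35% and 64% of the tropomyosins (with Tpm3 and Tpm4). Without the cells with an endothelial gene the virgin basal medians were higher, at 22.2% for the actins, 47% for Myh11, 72.4% for Myl9, 53.3% for Cnn1, 76.7% for Tagln and 50.6% for the tropomyosins, each below the pregnant one. The medians within Tpm1 and Tpm2 leaned the other way: Tpm2 was 57.6% of Tpm1 and Tpm2 in virgin and 42.5% in pregnant basal cells. The pregnant quartiles, 32.6% to 56.3% (100 cells), lay inside the virgin ones, 18.7% to 78.1% (29 cells). This share therefore did not set the groups apart.

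How multi-mapped fragments were shared between relatives is not stated in any source used. Coding sequences of Acta2 and Actg2 were 84.4% identical over aligned bases with a longest identical run of 29 bases, those of Acta2 and Actb 83.2% with a run of 47, and those of Myl9 and Myl12b 86.3% with a run of 35. Levels of these relatives may therefore carry some fragments of each other. Of 26 virgin basal cells with Acta2 at 100 FPKM or more, 10 had Actg2 listed at 0, the highest with Acta2 at 2836 FPKM, whereas 1 of 100 such pregnant basal cells did.

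Other genes of the pathway, from lists chosen by function, were read in the same comparisons. In pregnant against virgin basal cells 12% of tested genes were higher by at least 1 and 0.454% lower. Of 16 smooth muscle partners, 12 were higher there and 0 lower (median 1.56). Among them were Pdlim3, an actinin-binding protein (4.45), the actin crosslinker Flna (2.88) and Tns1, a focal adhesion protein (2.31). The same number, 12 of 16, were higher in pregnant basal than pregnant luminal cells (5.27% of tested genes). Pdlim3 (5.64) and the caldesmon gene Cald1 (5.58) came first. Between the virgin gates 9 of 16 were higher in basal cells (2.41% of tested genes). Between luminal groups 1 was higher in pregnancy and 2 lower, beside 4.84% and 5.04% of tested genes, counts too small to set the list apart.

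Non-muscle relatives were also higher in pregnant basal cells: 7 of 12 against virgin basal cells (12% of tested genes), led by Cnn2 (4.15) and Tpm4 (2.44). In that comparison 1 was lower (0.454% of tested genes). Between the virgin gates the count was 2 higher and 3 lower in basal cells, with Tpm4 at -2.22, Actg1 at -1.99 and Myl6 at 1.51. The count lower is a share near the 26.9% of all tested genes, of which 2.41% were higher, and the list's median, -0.48, was near theirs, -0.46. In pregnancy 7 of 12 were higher in basal than luminal cells and 0 lower, beside 5.27% and 16.3% of tested genes.

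Genes between receptor and motor differed less. Of 16 oxytocin and calcium signalling genes, 4 were higher in pregnant than in virgin basal cells and 0 lower: the calmodulins Calm3 (1.54) and Calm2 (1.19), the calcium pump Atp2a2 (1.12) and the phospholipase Plcb1 (1.03). The median of the list, 0.21, lay near that of all tested genes, 0.20, of which 12% were higher. Without the cells with an endothelial gene, 2 of these 16 genes were higher, as were 1 of 10 SRF and cofactor genes, 11 of the 16 partners and 6 of the 12 non-muscle relatives. The share of all tested genes without those cells is not given here.

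The list of SRF and cofactors had a mean of 1.51 over pregnant and 1.12 over virgin basal cells. Of its 10 genes, 2 were higher in pregnant than in virgin basal cells by at least 1, beside 12% of all tested genes. They were Tead1 (1.27) and Yap1 (1.04), which are not of the myocardin family and had pregnant basal means of 2.91 and 3.49. The list's median was 0.16 against 0.20. Srf itself differed by 0.89 (mean 1.63 ± 2.11 SD against 0.74 ± 1.67). Between the virgin gates 0 of the 10 were higher in basal cells and 1 lower, beside 2.41% and 26.9% of tested genes. It was Mkl2, of the myocardin family, at -1.38. Myocd, which encodes myocardin, reached 1 FPKM in 0 cells of the whole series, which allows at most 1.26% of cells at that level. It was above 0 in some cells and listed at 0 in 201, and its highest value was 0.063 FPKM. Within the list of SRF and cofactors, Fhl2 (1.73) had the largest difference between pregnant basal and pregnant luminal cells. Striated muscle isoforms had 0 of 12 genes past 1 in any comparison. Only 1 of the 12 was found in enough cells to be among the tested genes, so a difference of 1 was hardly reachable. Acta1, skeletal muscle actin, reached 1 FPKM in 8 pregnant basal cells and 0 of 34 virgin ones.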

How the data were processed

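The authors deposited 1 table of FPKM values for the cells and 18850 genes, each sample being 1 cell. No header names the unit, which follows from the tools and the range of values. The submitters' processing notes list Trimmomatic 0.35, TopHat2 2.0.13, Cufflinks 2.2.1 and build mm10 (GRCm38). The annotation, the treatment of multi-mapped reads and any filters are not stated there or in the labels. Groups came from the sample titles, and 0 columns lacked a sample. The 10 genes and all gene lists were chosen with earlier results of these data known.

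For each gene the group means of log2(FPKM + 1), pseudocount 1, were subtracted and a difference of 1 was called, over the 10349 genes that reached 1 FPKM in 10 cells or more. With 1 sample per group no test was made. FPKM values below a few fragments are whole multiples of 1 fragment, which gave relative depth; transcript lengths from GENCODE set the scale. PCR copies cannot be told from molecules, and intervals cover counting error only. A value of 0 may be a gene left without an estimate. Shares of families used cells with a sum of at least 10 FPKM. Coding identity used the longest open reading frame of GENCODE protein-coding transcripts. Genes named are the 10 members, up to 4 per list with the largest absolute difference in the comparison described or discussed as absent, the 10 most like the members in pregnant basal cells, and luminal cells with at least 5 members one by one; the 5 endothelial genes, Acta1, and the values of Rgs5 and the keratins by cell were chosen after seeing the data. Some results on pathway genes are not reported here. The scripts were tested on simulated data. Python 3.11.15 with numpy 2.4.6, pandas 2.3.3, scipy 1.17.1 and matplotlib 3.10.9 was used. Alternatives were pseudocounts of 0.1 and 10, cells with at least 2000 genes, a middle range of gene number, rescaling of each cell to a common median over 580 genes found in at least 80% of cells, other detection thresholds, and partial or Pearson correlation.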

Additional observations from a re-analysis of the deposited data

How the results depend on the processing

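The counts of members higher by at least 1 stayed within 1.5 times for virgin basal against virgin luminal (8 or 9 of 10), pregnant basal against pregnant luminal (10 of 10) and pregnant against virgin basal cells (8 to 10 of 10) under every alternative run. For pregnant against virgin luminal cells the 3 members became 7 with a pseudocount of 0.1 FPKM, 0 with 10 FPKM, 0 in the middle range of gene number (25th to 75th percentile), and 1 without the 4 cells with Krt5. The median pairwise rho of virgin basal cells, 0.53, was 0.30 without the 8 cells with an endothelial gene. Median members per cell, the pregnant basal rho and the actin shares moved by less than 1 SD under every alternative run, and no called difference of a member changed sign. Counts over all tested genes did depend on the setting: genes higher in pregnant than in virgin basal cells numbered 1238, and 2577, 318 and 734 with pseudocounts of 0.1 and 10 FPKM and after rescaling. Genes higher in virgin basal than in virgin luminal cells numbered 249, and 407, 98 and 693 in the same order. Rescaling moved the share of higher among called genes of that comparison from 8.21% to 24.8% and the median of all genes from -0.46 to -0.27, and a pseudocount of 10 FPKM moved the share for pregnant basal against pregnant luminal cells from 24.4% to 37.7%. The causes were not tested. The virgin basal cells, of which 12 of 34 had at least 2000 genes, had fewer genes and a lower median depth than the other groups. This limits every statement on Actg2 and Oxtr in that group. No paired analysis was possible because cell numbers only name cells and no test was made.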

Other observations

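Simple keratins and contractile genes shared many basal cells. Krt8, a luminal keratin, reached 1 FPKM in 94 pregnant basal cells (median 182 FPKM in those) and in 21 of 34 virgin basal cells (median 88.5 FPKM). Its rho with the members' mean rank was 0.60 in virgin and 0.27 in pregnant basal cells, and 0.28 and 0.20 without the cells with an endothelial gene. Krt18, its usual partner, was found in 42 pregnant and 13 of 34 virgin basal cells, at medians of 19.9 and 69 FPKM in those cells. In luminal cells both were found in all 54 virgin and all 49 pregnant cells.

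Skeletal muscle actin Acta1 was high in a few cells of the pregnant basal gate, with a median of 185 FPKM in the 8 cells that had it and a highest value of 1408 FPKM. Myh7, a striated myosin heavy chain, reached 1 FPKM in 1 cell of that gate. Sequence shared with Acta2 was not examined for this gene.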
